A study of Mus musculus with 12 samples.

Results

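Cytosolic ribosomal protein genes encode the proteins of the 40S and 60S subunits of the ribosome. They were chosen by name alone, as every gene called Rpl or Rps with a number and, where present, a closing a, x or l, together with Rplp0, Rplp1, Rplp2 and Rpsa. This gave 83 of the 45859 genes of the tables, 51 of the large subunit and 32 of the small subunit, on 19 chromosomes. Pseudogenes and the Rps6k kinases, which phosphorylate a ribosomal protein but are not part of the ribosome, were left out. RefSeq lists 81 of the 83 as protein coding, Rpl6l as a pseudogene and Rps4l as a transcribed pseudogene.

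The RNA came from lens capsules with their attached lens cells (LCs), taken from mice aged 2 months either at once or 24 h after the fiber cells had been removed through a corneal incision, a model of cataract surgery. The 4 groups of 3 libraries were WT mice on C57BL/6 at 0 h and 24 h post cataract surgery (PCS), and β8ITG-cKO mice on a mixed C57BL/6 and 129S1/Sv background at the same times. The β8ITG-cKO mice carried a floxed Itgb8 allele, the gene of the β8 integrin subunit, and the MLR10-Cre transgene, which expresses Cre throughout the lens once the vesicle has formed, so the deletion preceded surgery by the whole of lens growth, and strain and deletion cannot be told apart. Each library pooled several capsules, whose cells also included any other cells that stayed on the capsule, and in such bulk RNA fewer cells of a type and less RNA per cell cannot be told apart.

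Ribosomal proteins are made in near equal numbers, since each ribosome holds one copy of almost every one of them, and their mRNAs are usually among the most abundant of a growing cell. Most of these mRNAs begin with a short pyrimidine tract at the very start, the TOP motif, through which mTORC1 signaling sets how much of them is translated, so that ribosomal protein output can change with no change in mRNA. Members that do not find a place in a ribosome are degraded, and free Rpl5 and Rpl11, bound to 5S rRNA, hold back Mdm2 and so stabilize p53.

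The start of each gene is shown because it carries the feature that the family is known to share. A RefSeq promoter window, from 250 bases before to 50 after the annotated start on GRCm38.p6, was found for 61 of the 83 genes. A run of at least 6 pyrimidines overlapping the 11 bases centred on the start was present in 30 of these 61 (49.2%), against 21% of the windows of all 27025 genes, and the letters CGGAAG, the core of sites for ETS family factors, on either strand in 41 (67.2%) against 17.2%. AAGATGGC, letters of YY1 sites, on either strand was in 4 of 61 (6.56%) against 2.88%. The ends of these motifs can overlap, which was not counted apart. Below, 10 bases before and 20 from the start are given 5′ to 3′, with the pyrimidine run in capitals. Rps6, Rpl12, Rpl10a and Rpl27a carry one, as do Fau and Rack1, which also encode ribosomal proteins but fall outside the name rule, whereas Rpl41 and Rpsa, both among the members with the highest FPKM, do not at these annotated starts. The run of Rpl10a ends before the annotated start and so lies outside the annotated mRNA. The windows lie at chr4:86857348-86857377 (minus strand), chr2:32961702-32961731 (plus), chr17:28328461-28328490 (plus), chr7:109519185-109519214 (plus), chr10:128549149-128549178 (minus), chr9:120127756-120127785 (plus), chr19:6057937-6057966 (plus) and chr11:48800350-48800379 (plus), in the order printed.
Rps6: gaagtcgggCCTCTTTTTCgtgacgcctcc
Rpl12: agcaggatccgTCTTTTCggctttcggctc
Rpl10a: gCCCCCCCagcggccgcaaactgcagcgcc
Rpl27a: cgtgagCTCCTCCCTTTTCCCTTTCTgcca
Rpl41: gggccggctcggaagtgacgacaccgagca
Rpsa: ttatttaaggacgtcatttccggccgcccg
Fau: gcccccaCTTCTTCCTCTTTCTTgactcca
Rack1: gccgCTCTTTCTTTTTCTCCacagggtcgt

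The levels of the members were low for this family. Values are FPKM, fragments scaled to the length of the transcript and the size of the library, so genes are on a common scale, within the limits given below. The median member had a mean of 1.35 FPKM over the 12 libraries, 53 of 83 lay under 2 FPKM, 73 under 5 FPKM, and 4 reached 10 FPKM. Genes that encode ribosomal proteins under other names were far higher, with means of 282 FPKM for Fau (RPS30 fused to a ubiquitin-like protein) and 174 FPKM for Rack1 (a 40S subunit protein). The 14 subunits of initiation factor 3 had a median of 43.7 FPKM and the 77 mitochondrial ribosomal protein genes a median of 8.44 FPKM. Of other genes whose symbols begin with Rpl or Rps, some were also low and some were not. Rps3a1, Rpl7l1, Rpl22l1 and Rpl36al, all left out by the name rule, ranged from 0.778 to 5.91 FPKM. The 10 Rps6k kinases ranged from 0.0177 to 0.852 FPKM. Of 301 pseudogenes with such symbols, 20 had a mean of 10 FPKM or more. These classes were set beside the members after the low values were seen, and the source of the gap was not tested, so the FPKM below compare libraries and are not read as the true abundance of an mRNA.

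**Figure D1:**
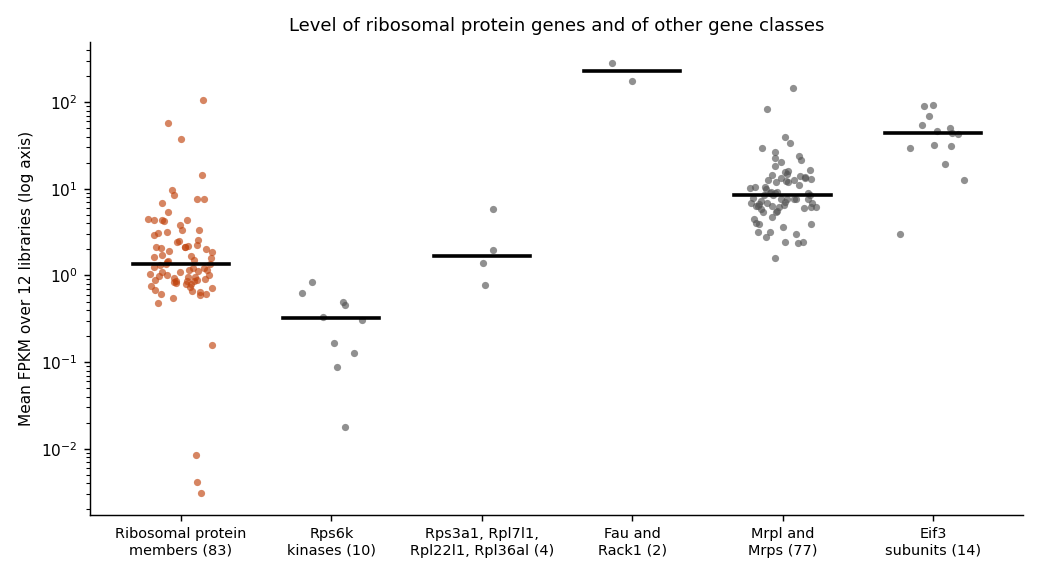
Mean FPKM over the 12 libraries (log axis) of each gene in 6 classes, with 1 point per gene and a bar at the class median. The 83 members centre on 1.35 FPKM, below the mitochondrial ribosomal protein genes at 8.44 FPKM and the initiation factor 3 subunits at 43.7 FPKM, while Fau and Rack1 lie at 282 and 174 FPKM.

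Pseudogenes of the members were also measured. Of 301 pseudogenes named after a ribosomal protein gene, 20 had a mean of 10 FPKM or more, and the summed level of all 301 per library (523.1 to 1141.5 FPKM) was above that of the 83 members (302.9 to 564.2 FPKM). Of the 62 members with a named pseudogene, 38 lay below the sum of their own pseudogenes. Rpl34 had a mean of 1.03 FPKM and Rpl34-ps1 one of 117.9 FPKM, and Rpl14 had 3.12 FPKM against 42.9 FPKM for Rpl14-ps1. How the authors' counting shared fragments between a gene and its copies is not given in the sources used here, so a value of either is uncertain. Some pseudogenes also have long intervals, such as chr7:45303155-45334070 for Rpl14-ps1. Other genes within them were not looked for.

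From the steps between low FPKM values, the depth was estimated at 26300000 to 32900000 fragments per library, at which 1 FPKM over 0.5 kb of effective length amounts to 13.2 to 16.4 fragments. The estimate is rough. Its spacing was picked, within set limits, as the best fit to these same low values. Of them, 50.7% to 60.3% lay within 0.15 of a whole number of fragments. Evenly spread values would give 30% at a spacing fixed beforehand, so these shares do not test the fit. Summed FPKM over all genes ran from 446531 to 740140 per library, of which the 10 highest genes held 36.0% to 49.6% and the members 0.0458% to 0.108%. Itgb8, all exons together, did not separate the genotypes at 24 h PCS (log2 difference 0.19, SE 0.14, limma-trend adjusted p = 0.486). Nor did it at 0 h, where the groups overlapped (log2 difference -0.45, SE 0.19, limma-trend adjusted p = 0.209). Only part of the gene is floxed, so FPKM over all exons cannot decide whether it was deleted. The genotype of each library was taken from its label. The paper reports the deletion by PCR of lens genomic DNA, and the absence of β8 integrin protein from β8ITG-cKO LCs by immunofluorescence. Markers of other cells moved with the groups, and their part in the changes of the members was not tested. All 12 retina markers passed as higher in β8ITG-cKO LCs at 24 h than at 0 h, with a summed level of 146 to 1149 FPKM in WT 0 h, 76.8 to 148 FPKM in WT 24 h, 180 to 330 FPKM in β8ITG-cKO 0 h and 839 to 1000 FPKM in β8ITG-cKO 24 h libraries, and none of the 12 was at 0 throughout. Between genotypes, 10 of these 12 were higher in β8ITG-cKO than in WT at 24 h and 0 at 0 h. In the interaction of genotype and time 11 were higher. The 11 lens fiber markers summed to 4147 to 6213 FPKM at 0 h and 730 to 1471 FPKM at 24 h in both genotypes, and 10 of them passed as lower in each. Of 6 lens epithelium markers 1 was higher and 3 lower in WT and 5 lower in β8ITG-cKO LCs over time, with sums of 10253 to 14859 FPKM at 0 h and 3194 to 5483 FPKM at 24 h. Cryab alone made up most of these sums, with 9870.3 to 14324 FPKM at 0 h and 2967.3 to 5174.0 FPKM at 24 h. The sums therefore do not stand for the list. In WT the marker that rose was Cdh1, from a mean of 59.1 to 80.9 FPKM, and Gja1 had 111.4 and then 107.1 FPKM. All 5 red blood cell markers were lower in β8ITG-cKO than in WT at 0 h and higher in β8ITG-cKO at 24 h than at 0 h, with sums of 68 to 153 FPKM in WT 0 h, 36 to 220 FPKM in WT 24 h, 6.52 to 15.8 FPKM in β8ITG-cKO 0 h and 87.4 to 195 FPKM in β8ITG-cKO 24 h libraries. Of 6 neutrophil markers, 3 (Cxcr2, S100a8 and S100a9) were higher at 24 h in both genotypes and Elane, Ly6g and Mpo were listed at 0 in every library, with sums of at most 0.993 FPKM at 0 h, 36.7 to 53.4 FPKM in WT 24 h and 8.48 to 24.6 FPKM in β8ITG-cKO 24 h libraries. Of 5 macrophage markers 2 were higher in WT and 3 in β8ITG-cKO LCs at 24 h, with sums of 5.94 to 10.3 FPKM at 0 h and 16.9 to 35.1 FPKM at 24 h. Of 4 corneal epithelium markers 1, Aldh3a1, was higher in β8ITG-cKO (535.2 to 911.0 FPKM) than in WT (207.5 to 264.2 FPKM) at 0 h. It fell in β8ITG-cKO by 24 h (137.9 to 188.9 FPKM). Of 4 corneal stroma markers 1 rose and 1 fell in WT and 1 rose in β8ITG-cKO LCs. Of 5 iris and ciliary markers none passed over time.

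Among the members, 3 genes made up 45.1% to 55.8% of the summed FPKM. Rpl41, which encodes a peptide of the large subunit that is among the shortest proteins known, had a mean of 105.5 FPKM, Rpl29, a large subunit protein that also binds heparin, one of 56.9 FPKM, and Rpsa, a small subunit protein also known as the laminin receptor, one of 37.7 FPKM. Rpl6l (14.5 FPKM) and Rps4l (9.71 FPKM) came next, both listed as pseudogenes. Of the stalk genes, the tables gave 8.44 FPKM for Rplp1, 7.61 FPKM for Rplp0, the base of the stalk, and 1.09 FPKM for Rplp2, whose own pseudogene had 6.24 FPKM.

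Paralog pairs differed in the level of the second gene. Rps27l, a copy of Rps27 known as a p53 target, had 0.157 FPKM against 1.17 FPKM for Rps27. Rpl3l, known from muscle, had 0.0084 FPKM against 1.92 FPKM for Rpl3. Rpl10l and Rpl39l, both known from testis, had 0.00307 and 0.00416 FPKM against 1.62 FPKM for Rpl10 and 1.47 FPKM for Rpl39. Each of the latter pair was listed at exactly 0 in most libraries, Rpl10l above 0 in WT 0 h replicate 2 alone and Rpl39l in WT 0 h replicate 3 and β8ITG-cKO 24 h replicate 1, while Rpl3l was listed at 0 in WT 24 h replicate 2. Rps4l was the exception, with 9.71 FPKM against 1.25 FPKM for Rps4x, the X-linked gene of the small subunit. Its interval in the tables is shared with Ergic2, at a mean of 9.25 FPKM, and the part of the sharing in its level was not tested. Together with Rps10, at 0.485 FPKM, the paralogs Rps27l, Rpl3l, Rpl39l and Rpl10l were the 5 members with a mean under 0.5 FPKM, the minimum for the tests, applied in each comparison to the libraries it used.

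The response of WT LCs to surgery was addressed first. At 24 h PCS, 13 of the 78 members tested rose (16.7%) and none fell, while the same test called 20.9% of all 15146 genes higher and 8.81% lower (limma-trend on log2(FPKM + 1), Benjamini-Hochberg adjusted p at most 0.05). Differences below are on this scale, which understates the change of low genes. At an unadjusted p under 0.05, 25 members were higher and 0 lower, beside 29.0% and 13.5% of all genes. Whether the share of members that rose was above or below that of all genes depended on the setting. It was 38.2% against 26.7% with a minimum of 2 FPKM, 29.5% against 28.1% with 1 fit over all 12 libraries and 28.2% against 24.7% without WT 24 h replicate 3, and below that of all genes in the other 10 alternatives. Over all 83 members the median log2 difference was 0.31, beside 0.16 over all genes tested, and 71 had a higher mean at 24 h. The WT groups were separate, with 24 h on top, for 32 of all 83 members, tested or not, and this held for 31.3% of all genes tested. With 0 h on top, 0 members and 15.6% of genes were separate. None of the 13 met the study's further criteria (more than 2-fold, more than 2 FPKM apart and a group mean of 2 FPKM or higher), which 10.3% of all genes met as higher and 3.92% as lower.

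Rpsa had the largest difference among those that passed on the log2(FPKM + 1) scale, while the ratio of means was larger for Rps16 (2.43), Rpl27 (2.16) and Rpl12 (2.02). Its WT 0 h values were 26.9, 27.5 and 21.1 FPKM, and its 24 h values 49, 65.4 and 34.7 FPKM. The groups did not overlap, and 24 h replicate 3 lay nearest to the 0 h level. The log2 difference was 0.92 (SE 0.24, limma-trend adjusted p = 0.0236), 1.97-fold in the means, and the call held in 8 of 13 alternatives. Rpl6l followed, moving from 10.9, 12.3 and 9.64 to 22, 22 and 14.6 FPKM (log2 difference 0.76, SE 0.19, adjusted p = 0.0219). Rpl12, which sits at the base of the stalk, went from 1.95, 1.57 and 2.24 FPKM to 4.58, 4.5 and 2.58 FPKM (log2 difference 0.72, SE 0.22, adjusted p = 0.0407). In both genes 24 h replicate 3 was again the lowest of its group, though above all 0 h libraries.

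The other 10 genes that rose were chosen for mention after their values were seen. They were Rpl29, Rpl27a, Rpl15, Rpl41, Rpl27, Rplp1, Rps16, Rpl13, Rps9 and Rpl14, with log2 differences from 0.59 to 0.70 and adjusted p from 0.0157 to 0.0495. By name, 10 of the 13 are large subunit genes, out of 51 such members, and 3 are small subunit genes, out of 32. The 10 include Rpl6l, listed as a pseudogene. Rpl41 moved from 82.6, 90.7 and 72.8 to 132.6, 149.6 and 108.8 FPKM, 1.59-fold in the means, with no overlap. Of the members with a role in signaling, Rps6, the substrate of the S6 kinases, was at 3.78 ± 0.628 FPKM (SD, n = 3) at 0 h and 6.02 ± 1.25 FPKM (SD, n = 3) at 24 h and did not pass (adjusted p = 0.0608). Rpl5 and Rpl11 had log2 differences of 0.21 and 0.40 (adjusted p = 0.31 and 0.136), and Rplp0 one of 0.40 (adjusted p = 0.0968).

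The count in WT LCs depended on single libraries, as did that of all genes, of which 12% to 24.7% were higher when 1 library was left out. For the members it was 0 without WT 0 h replicate 1, 5 without replicate 2 and 1 without replicate 3 of that group, 1 without WT 24 h replicate 1, 1 without replicate 2 and 22 without replicate 3. After the libraries were rescaled to the same median, which moved the median of all genes from 0.16 to -0.04, that of the members was 0.11, and 4 members were higher and 0 lower, beside 14.7% and 15.9% of all genes.

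**Figure D2:**
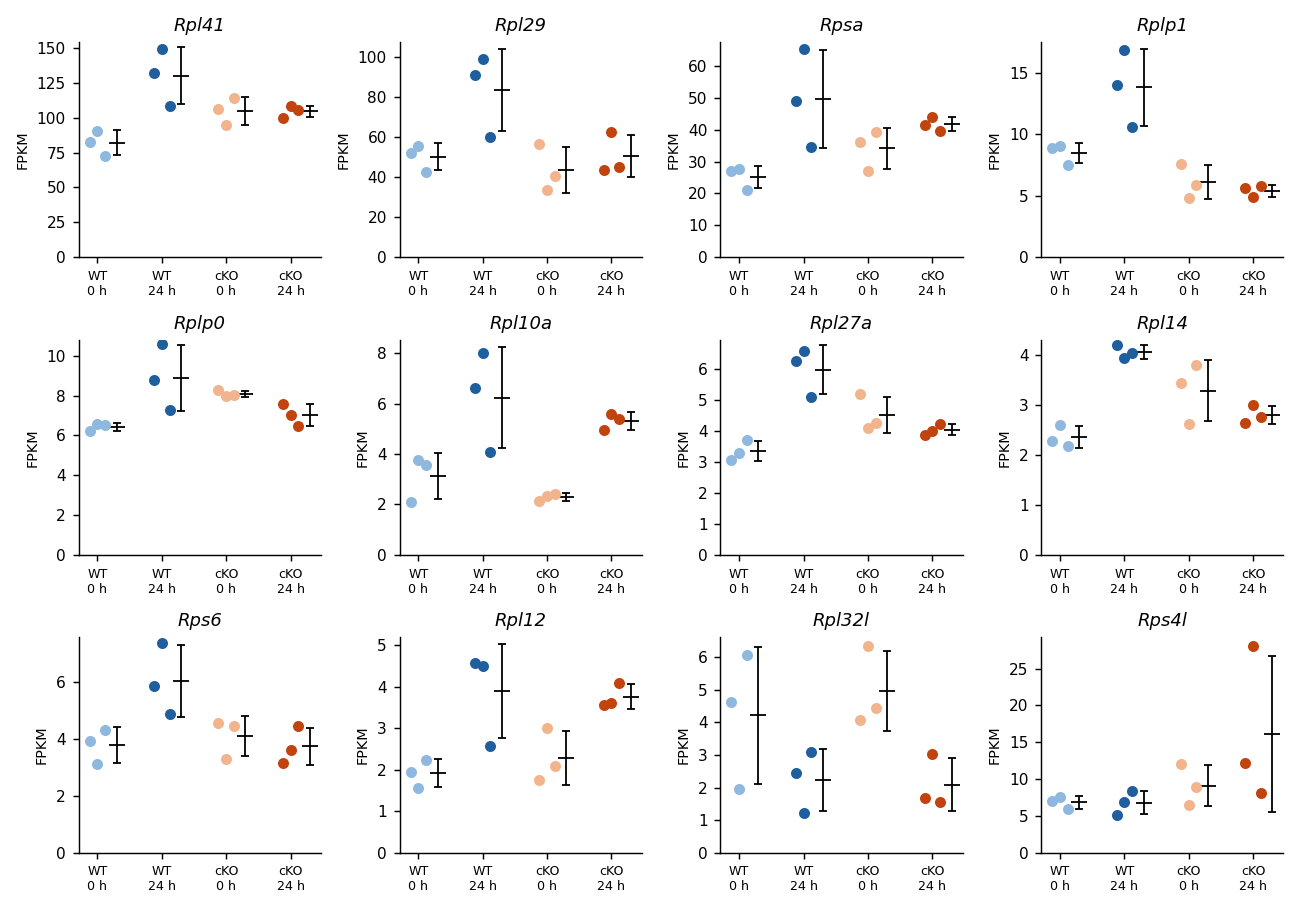
FPKM of 12 members in each library, with the mean and SD of each group beside the points (n = 3). In Rpl41, Rpl27a and Rpl14 the WT 24 h libraries lie above the WT 0 h libraries while the β8ITG-cKO groups overlap, Rplp1 at 24 h is lower in β8ITG-cKO (4.86 to 5.78 FPKM) than in WT (10.6 to 16.8 FPKM), and Rpl10a is higher at 24 h in β8ITG-cKO.

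The matching comparison addressed the response of LCs labelled as lacking the integrin. In β8ITG-cKO LCs, 7 of 77 members tested rose (9.09%) and 1 fell, whereas 35.4% of all 15237 genes tested were higher and 10.7% lower. The median log2 difference of the members was 0.15 beside 0.23 over all genes tested, and it was -0.01 once libraries had been rescaled to the same median, where all genes lay at 0 and 1 member was higher and 7 lower. Under rescaling to the same upper quartile it was 0.02, with 2 members higher and 4 lower. Of all genes, 21.1% were then higher and 20% lower with the median, and 23.5% and 17.4% with the upper quartile, so the shares of members called lower, 9.09% and 5.19%, were also below those of all genes. At an unadjusted p under 0.05, 8 members were higher and 2 lower, beside 40.7% and 13.0% of all genes. Of all 83 members, tested or not, 17 had separate groups with 24 h on top and 4 with 0 h on top, beside 42.9% and 14.0% of all genes tested.

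Rpl10a, a protein of the L1 stalk at the exit side of the ribosome, rose most clearly. Its 0 h values were 2.14, 2.33 and 2.42 FPKM, and its 24 h values 4.94, 5.61 and 5.4 FPKM. The values within each group lay close together and far from the other group, with a log2 difference of 0.94 (SE 0.11, limma-trend adjusted p = 0.000382), 2.32-fold in the means. It was the only member that met the study's further criteria as higher, in a comparison where 11.3% of all genes did. In WT LCs it had 2.09, 3.78 and 3.55 and then 6.64, 8.01 and 4.08 FPKM, a log2 difference of 0.79 that did not pass (SE 0.26, adjusted p = 0.0557), and the interaction of genotype and time for it was 0.15 (SE 0.30, adjusted p = 0.813).

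Rps15, a protein of the head of the small subunit, moved from 1.22, 0.912 and 1.64 to 2.1, 2.45 and 2.94 FPKM in β8ITG-cKO LCs. Its groups did not overlap (log2 difference 0.64, SE 0.16, adjusted p = 0.0146), and after rescaling to the same median the adjusted p was 0.0511. Rpl12 was the only member to pass in both genotypes, moving from 1.75, 3 and 2.1 to 3.56, 3.61 and 4.1 FPKM in β8ITG-cKO LCs (log2 difference 0.55, SE 0.16, adjusted p = 0.0231), but its call held in 4 of 13 alternatives in WT and 6 of 13 in β8ITG-cKO. Rpl3, Rpl36, Rps14 and Rpl13a also rose, by 0.41 to 0.50, and were named after their values were seen. Rpl3 helps to form the peptidyl transferase centre.

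The single fall was in Rpl32l, named after Rpl32 and placed by the tables at chr10:20148920-20281590, an interval it shares with 4 other genes. Its 0 h values were 4.08, 6.35 and 4.45 FPKM, and its 24 h values 1.67, 3.02 and 1.57 FPKM, without overlap (log2 difference -0.96, SE 0.21, limma-trend adjusted p = 0.00815), 0.421 times the 0 h mean, and it passed in each of 13 alternatives. It was also the member that met the study's criteria as lower, as 3.77% of all genes did. In WT LCs its values were 4.62, 1.94 and 6.08 FPKM and then 2.44, 1.21 and 3.08 FPKM, where the groups overlapped (log2 difference -0.64, SE 0.36, adjusted p = 0.214). One of the 4, Map7, was far higher and fell too, from a mean of 85.3 to 46.3 FPKM in β8ITG-cKO LCs (log2 difference -0.87, SE 0.13, adjusted p = 0.00111) and from 69.4 to 40.8 FPKM in WT LCs (-0.76, SE 0.14, adjusted p = 0.00685). Its part in the values of Rpl32l was not tested. Rpl32 itself had 2.9, 2.45 and 2.04 FPKM and then 2.17, 2.54 and 2.96 FPKM in β8ITG-cKO LCs, with overlap.

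Rps4l set itself apart by its spread. In β8ITG-cKO LCs at 24 h its values were 12.2, 28.1 and 8.04 FPKM, with 1 library more than 2 times the others, against 12, 6.43 and 8.86 FPKM at 0 h (log2 difference 0.63, SE 0.40, adjusted p = 0.242). In WT LCs it stayed between 5.18 and 8.43 FPKM at both times.

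**Figure D3:**
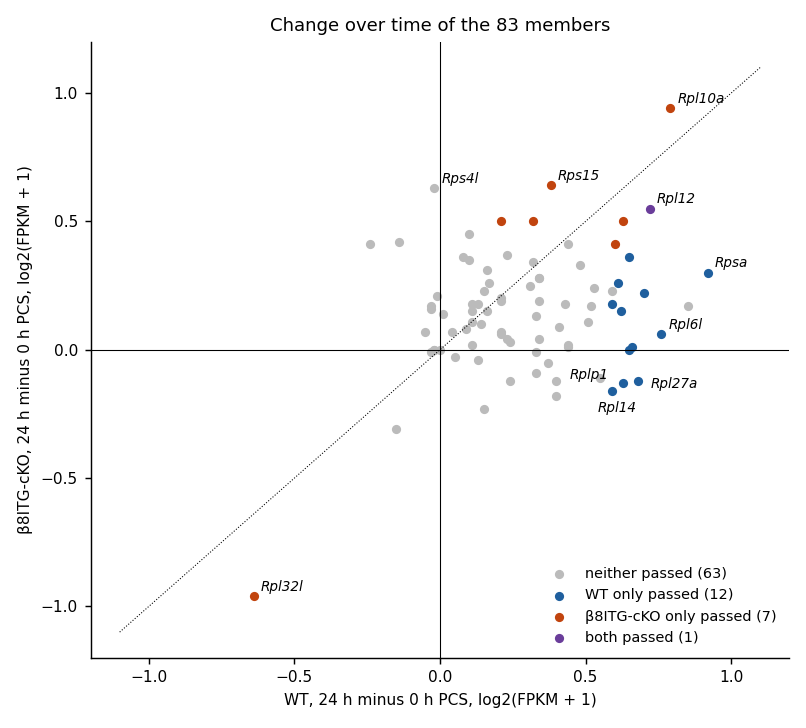
Difference between 24 h and 0 h PCS on the log2(FPKM + 1) scale for each of the 83 members, WT on the horizontal and β8ITG-cKO on the vertical axis, colored by which comparison passed the test, with a dotted line of equal change. 12 members passed in WT alone, 7 in β8ITG-cKO alone and 1, Rpl12, in both, but passing in one genotype only is not a test of a difference between them.

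Genotypes were then compared at each time. At 0 h PCS no member of 77 tested passed in either direction, beside 4.18% of 14708 genes higher and 2.75% lower (with the study's criteria, 1.35% and 1.18%), and 7 members were higher and 2 lower at an unadjusted p under 0.05, beside 13.9% and 10% of all genes. The median log2 difference was -0.01, and the members' ranges overlapped in most genes. Of all 83 members, tested or not, β8ITG-cKO lay wholly above WT for 11 and wholly below for 7. This held for 18.0% and 12.8% of all genes tested. Rpl41 was among the 11, its lowest β8ITG-cKO library having 94.6 FPKM and its highest WT library 90.7 FPKM (log2 difference 0.35, SE 0.12, adjusted p = 0.131).

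At 24 h PCS, 1 of 79 members tested was lower in β8ITG-cKO than in WT LCs and none was higher, against 0.644% of 15366 genes lower and 5.64% higher. At an unadjusted p under 0.05, 9 were lower and 1 higher, beside 6.2% and 14.2% of all genes. The member that passed was Rplp1, an acidic protein of the stalk that recruits elongation factors. WT values were 14, 16.8 and 10.6 FPKM, and β8ITG-cKO values 5.6, 4.86 and 5.78 FPKM. The lowest WT library lay well above the highest β8ITG-cKO library, and the log2 difference was -1.18 (SE 0.18, limma-trend adjusted p = 0.00944), with a β8ITG-cKO mean 0.393 times that of WT. It met the study's further criteria too, as 0.286% of all genes did in that direction and 3.37% in the other. Without β8ITG-cKO 24 h replicate 2 the adjusted p was 0.0527, and the call held in the other 12 alternatives.

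At 0 h the WT values of Rplp1 were 8.84, 9.02 and 7.52 FPKM, and the β8ITG-cKO values 7.54, 4.84 and 5.9 FPKM. The groups overlapped only through the highest β8ITG-cKO and the lowest WT library, and the difference did not pass (log2 difference -0.43, SE 0.16, adjusted p = 0.151). In WT LCs Rplp1 rose by 24 h (log2 difference 0.63, SE 0.19, adjusted p = 0.0388), and in β8ITG-cKO LCs the difference was -0.13 (SE 0.15, adjusted p = 0.52), but the interaction did not pass (-0.76, SE 0.25, adjusted p = 0.0811). At 24 h the partner Rplp2 had 1.31, 1.54 and 1.33 FPKM in WT against 0.787, 1.34 and 1.08 FPKM in β8ITG-cKO, and the base Rplp0 8.8, 10.6 and 7.3 FPKM against 7.59, 7.04 and 6.45 FPKM, both with overlap and neither past the test (adjusted p = 0.501 and 0.359). Rplp1 lies at chr9:61913283-61914510 on GRCm38, and its single named pseudogene was listed at 0.

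Over all 83 members the β8ITG-cKO values at 24 h had a median below that of all genes. The median log2 difference was -0.13 beside 0.03 over all genes tested, and -0.16 and -0.11 when libraries were rescaled to the same median or upper quartile. A lower mean was found in 67 of 83, and all 3 β8ITG-cKO libraries lay below all 3 WT libraries for 11 members, as they did for 9.0% of all genes tested, and above them for 1 member and 17.5% of genes. Rps6 had 5.86, 7.34 and 4.86 FPKM in WT against 3.14, 3.61 and 4.43 FPKM in β8ITG-cKO, without overlap (log2 difference -0.56, SE 0.18, adjusted p = 0.129). Without WT 24 h replicate 3, 3 members passed as lower, beside 1.49% of all genes, and after rescaling to the same median also 3, beside 1.56%.

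Whether the response over time differed between genotypes was tested as an interaction over all 12 libraries. Of 78 members tested, 2 (2.56%) had a lower change in β8ITG-cKO than in WT LCs and none a higher one. Of all 15262 genes, 2.56% were lower, an equal share, and 6.83% higher. At an unadjusted p under 0.05, 9 were lower and 1 higher, beside 9.51% and 14.7% of all genes. Rpl27a, a large subunit protein, moved from 3.04, 3.28 and 3.69 to 6.25, 6.56 and 5.07 FPKM in WT, while its β8ITG-cKO values were 5.17, 4.09 and 4.23 and then 3.87, 3.99 and 4.22 FPKM. WT went without overlap from below the β8ITG-cKO 0 h values to a mean above them, while β8ITG-cKO overlapped between the times (interaction -0.80, SE 0.18, limma-trend adjusted p = 0.0193). It passed in each of 18 alternatives. Rpl14, another large subunit protein, moved from 2.28, 2.6 and 2.17 to 4.2, 3.93 and 4.04 FPKM in WT, against 3.44, 2.61 and 3.79 and then 2.64, 3 and 2.75 FPKM in β8ITG-cKO (interaction -0.76, SE 0.18, adjusted p = 0.0248). Its β8ITG-cKO groups overlapped, and its call held in 11 of 18 alternatives, with an adjusted p of up to 0.0668 without β8ITG-cKO 0 h replicate 3. Its pseudogene Rpl14-ps1, far higher at 42.9 FPKM, had an interaction of -0.62 that did not pass (SE 0.36, adjusted p = 0.33), and its part in the value of Rpl14 was not tested.

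The median interaction of the members was -0.15 beside 0 over all genes tested. The number past the test was 8 without WT 24 h replicate 3, where 5.06% of all genes were lower, and 1, with 1.08% to 1.86% of all genes lower, without WT 0 h replicate 1, WT 24 h replicate 1, β8ITG-cKO 0 h replicate 1 or 3, or β8ITG-cKO 24 h replicate 1 or 3. Rescaling to the same median gave 7, beside 4.26% of all genes, and to the same upper quartile 6, beside 2.99%.

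**Figure D4:**
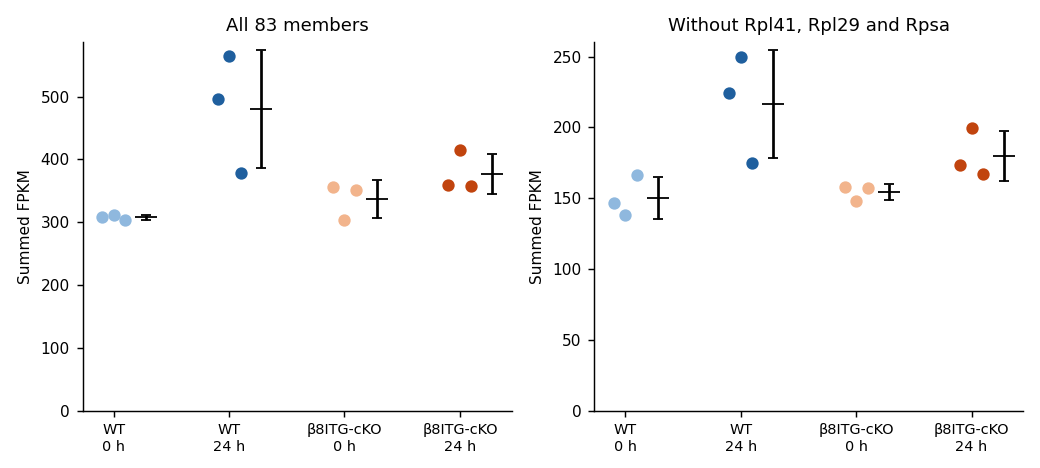
Summed FPKM of all 83 members (left) and of the 80 left when Rpl41, Rpl29 and Rpsa are taken out (right), with 1 point per library and the mean and SD of each group beside them (n = 3). WT 24 h libraries sum to 378.4 to 564.2 FPKM on the left, above WT 0 h at 303.1 to 311.9 FPKM, and β8ITG-cKO 24 h libraries to 357.4 to 414.5 FPKM.

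Summed FPKM followed the counts, with the higher members weighing most. WT sums were 308.3, 311.9 and 303.1 and then 497.0, 564.2 and 378.4 FPKM. Those of β8ITG-cKO were 356.9, 302.9 and 351.3 and then 358.8, 414.5 and 357.4 FPKM. WT separated by time, with 24 h replicate 3 closest to the 0 h level, and β8ITG-cKO 24 h libraries lay just above those at 0 h. Rescaled to the same median, the group means were 343.7 and 441.7 FPKM in WT and 367.3 and 334.1 FPKM in β8ITG-cKO, so the order of the β8ITG-cKO times turned. Of the 12 libraries, WT 24 h replicate 2 held the highest value of 38 members and WT 0 h replicate 2 the lowest of 24.

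**Figure D5:**
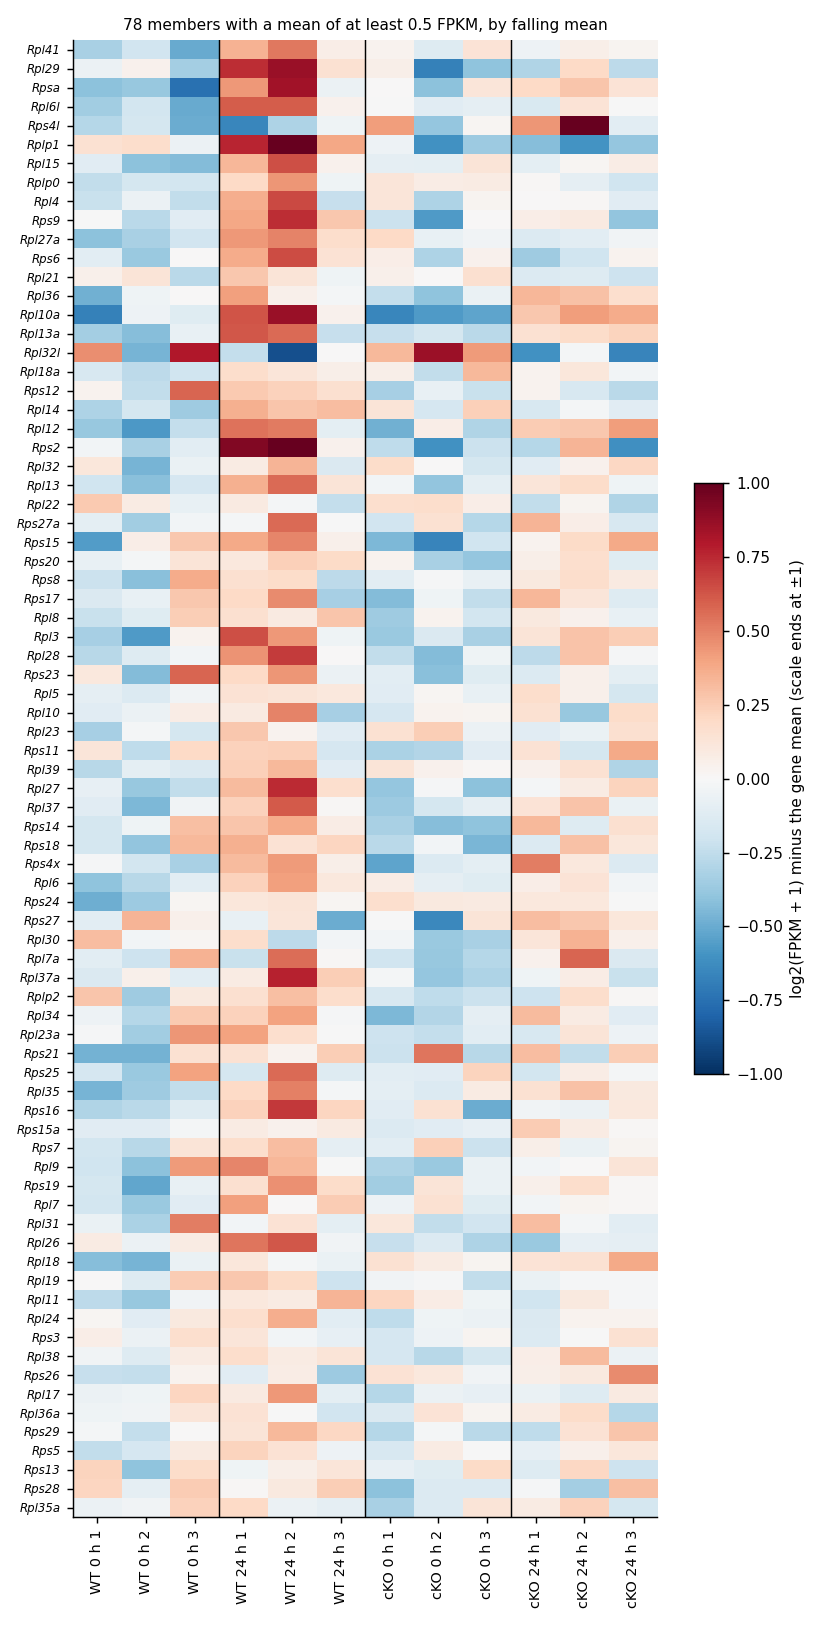
Each of the 78 members with a mean of at least 0.5 FPKM (rows, by falling mean) in each of the 12 libraries (columns), as log2(FPKM + 1) minus the mean of the gene, with colors ending at -1 and 1. WT 24 h replicates 1 and 2, which hold the highest value of 14 and 38 of all 83 members, drawn or not, stand out as columns.

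Other genes of the pathway are given as counts, each with the count after rescaling to the same median in brackets. Of all genes, 20.9% were higher and 8.81% lower in WT LCs [14.7% and 15.9%], and 35.4% and 10.7% in β8ITG-cKO LCs [21.1% and 20%]. In WT LCs, 23 of 28 genes for the synthesis and processing of rRNA rose [19] and none fell, with a median log2 difference of 1.07. Nop56, a core protein of the box C/D snoRNPs that guide rRNA methylation, went from a mean of 13.7 to 44.5 FPKM (log2 difference 1.60, SE 0.20, limma-trend adjusted p = 0.00173). Of 22 initiation factor genes 15 rose [11] and none fell, of 8 chaperones of new ribosomal proteins 5 rose [5] and none fell, and of 77 mitochondrial ribosomal protein genes 23 rose [15] and none fell [1]. Genes that share the TOP motif or act in elongation split, with 6 of 17 higher and 1 lower, and in the arm of mTORC1 and the S6 kinases 2 of 14 were higher and 1 lower, the same counts as after rescaling.

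In β8ITG-cKO LCs the genes for rRNA again rose, 23 of 28 [16], with none lower and a median of 0.65, but the other lists depended on the scaling. Initiation factors had 13 of 22 higher and 0 lower [3 and 3], the chaperones 4 of 8 and 0 [3 and 1], the mitochondrial ribosomal protein genes 24 of 77 and 3 [7 and 15], the TOP and elongation genes 5 of 17 and 4 [2 and 10], and the mTORC1 arm 3 of 14 and 2 [2 and 3]. Grwd1, the chaperone of Rpl3, rose by 1.61 in WT (SE 0.24, adjusted p = 0.00305) and by 0.98 in β8ITG-cKO LCs (SE 0.10, adjusted p = 0.000255). Rpl3 itself had 1.25, 0.921 and 1.91 FPKM and then 3.43, 2.83 and 1.76 FPKM in WT, with overlap. Eif4ebp1, the translational repressor that mTORC1 switches off, rose in both genotypes, by 2.07 and 1.76 (adjusted p = 0.000737 and 0.000273).

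The ribosomal protein genes outside the name rule gave 1 of 7 higher in each genotype. This was Rack1 in WT (log2 difference 0.79, SE 0.20, adjusted p = 0.0217) and Rpl22l1 in β8ITG-cKO LCs (0.51, SE 0.15, adjusted p = 0.0232), where rescaling to the same median left 0 higher and 0 lower. Fau, with the highest FPKM of these 7, had a log2 difference of 0.49 in WT (SE 0.22, adjusted p = 0.132) and of 0.10 in β8ITG-cKO LCs (SE 0.12, adjusted p = 0.528). Between genotypes at 0 h, 1 initiation factor was lower [2], 1 gene of the mTORC1 arm higher [1 higher and 1 lower] and 3 mitochondrial genes higher [4 higher and 1 lower] in β8ITG-cKO, and after rescaling also 1 TOP or elongation gene and 1 rRNA gene were higher. Mtor, named after its values were seen, had 57.3, 64.8 and 64.7 FPKM in β8ITG-cKO at 0 h against 30.7, 29.5 and 27.8 FPKM in WT. By 24 h it had 20, 20.8 and 23.7 FPKM against 24.9, 21.6 and 28.9 FPKM, with overlap. At 24 h 1 initiation factor was lower [2], and after rescaling also 2 chaperones, 1 TOP or elongation gene and 1 mitochondrial gene. In the interaction, 3 mitochondrial genes [6] and 1 gene each of the rRNA [3], chaperone [2], TOP and elongation [5] and mTORC1 [1] lists had a lower change in β8ITG-cKO than in WT, as did 0 initiation factors [5] and 0 ribosomal protein genes outside the name rule [1], and no gene of these lists had a higher one.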

How the data were processed

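Stranded total RNA libraries (low input, paired reads) from 3 replicates of 4 groups were measured. The authors used FastQC, cutadapt 1.12, TopHat2 2.1.0 and Cuffdiff 2.2.1 on mm10 or GRCm38.p5, per the submitters' processing notes, and deposited FPKM per library and gene in 4 tables whose values for a library were identical. The treatment of rRNA and multiply mapped reads is not given in the sources used here. The 16 group value columns and the deposited fold changes, p-values and q values were not used.

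From these FPKM, log2(FPKM + 1) was modelled by limma-trend with eBayes (limma 3.58.1, R 4.3.3), keeping genes whose mean reached 0.5 FPKM over the libraries used, with two-sided tests and Benjamini-Hochberg adjustment over all genes tested. The code was run on simulated data with large changes in genes of 5 FPKM or more. As 73 members lie under 5 FPKM, that run does not show how the test performs for them. The interaction used all 12 libraries. p-values reflect the spread between 3 libraries, which may share handling. Figures used Python 3.11.15, pandas 2.3.3, numpy 2.4.6 and matplotlib 3.10.9. The fragment estimate assumed 200 nt between length and effective length. RefSeq promoter windows and gene types (GRCm38.p6) were matched by symbol, the first window where a gene had several, and the intervals of 54 members equal the RefSeq gene.

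Members and lists were chosen with earlier results of these data known. Named are the stalk genes, Rpsa, Rps6, Rpl5, Rpl11, 5 paralog pairs, the 5 highest members, the 3 largest rises and falls past the test in each comparison, and members under the minimum or at 0 in some libraries. Alternatives were a pseudocount of 0.1, no minimum, a minimum of 2 FPKM, rescaling to the same median or upper quartile, 1 fit over 12 libraries, the replicate block, the study's criteria and each library left out. One gene of the list of ribosomal proteins outside the name rule is not reported here.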

Additional observations from a re-analysis of the deposited data

Results flagged for a closer look

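The change from 0 h to 24 h PCS differed between the genotypes, by the interaction term of the fit over all 12 libraries (limma-trend, Benjamini-Hochberg adjustment), for Rpl27a (-0.80, SE 0.18, adjusted p = 0.0193) and Rpl14 (-0.76, SE 0.18, adjusted p = 0.0248). These 2 of 78 members tested (2.56%) equal the share of all 15262 genes called lower (2.56%). Rpl27a was higher at 24 h in 3 of 3 WT libraries than in any WT 0 h library, and Rpl14 likewise, while in β8ITG-cKO LCs the log2 differences were -0.12 (SE 0.12, adjusted p = 0.417) and -0.16 (SE 0.14, adjusted p = 0.363). At 0 h both genes were higher in each β8ITG-cKO library than in any WT library, without passing the test (adjusted p = 0.17 and 0.205). Groups of 3 libraries are too small for a check of single outlying samples.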

How the results depend on the processing

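The members past the test in WT LCs over time (13 higher, 0 lower) were 3 with no minimum beyond a mean above 0, 4 and 3 with libraries rescaled to the same median and upper quartile, 23 with 1 fit over all 12 libraries, 0 under the study's criteria and 0 to 22 with 1 library left out. Of all genes, 20.9% were higher in the main test. In these alternatives, in the same order, the share was 8.15%, 14.7%, 14.3%, 28.1%, 10.3% and 12% to 24.7%. The members' median log2 difference of 0.31 was 0.11 and 0.10 with the rescalings. In β8ITG-cKO LCs (7 higher, 1 lower) the higher count was 4 with a minimum of 2 FPKM, 1 under the study's criteria, and 1 and 2 with the rescalings, where 7 and 4 were lower. Of all genes, 35.4% were higher in the main test, and 38.4%, 11.3%, 21.1% and 23.5% in these alternatives. With the rescalings, 20% and 17.4% of all genes were lower, instead of 10.7%. The members' median of 0.15 was 0.25 with a pseudocount of 0.1 and -0.01 and 0.02 with the rescalings. Between genotypes at 24 h the lower count of 1 was 3 after rescaling to the same median, 2 with 1 fit over all 12 libraries and 0 to 3 with 1 library left out. The share of all genes lower was 0.644% in the main test, and 1.56%, 2.06% and 0.157% to 1.49% in these alternatives. The interaction count of 2 lower was 7 and 6 with the rescalings and 1 to 8 with 1 library left out. For all genes the lower share was 2.56% in the main test, and 4.26%, 2.99% and 1.08% to 5.06% in these alternatives. At 0 h no member passed between genotypes in any alternative, while 0.542% to 6.16% of all genes were higher and 0.329% to 3.9% lower. Summed FPKM of 307.7 (WT 0 h) became 343.7 and 339.4 with the rescalings, 337.1 (β8ITG-cKO 0 h) became 367.3 with the median, and 376.9 (β8ITG-cKO 24 h) became 334.1. No named member changed sign while past the test. The cause of these shifts was not tested.

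Replicate numbers did not pair the libraries: over 18 same-numbered pairs the deviations correlated between -0.25 and 0.1. With the replicate block, 8 members (10.3%) were higher and 1 (1.28%), Rpl32l, lower in WT over time, beside 20.5% and 7.91% of all genes. In the interaction 1 member (1.28%) was lower, beside 1.66% of all genes. By a rough estimate, 1 FPKM over 0.5 kb amounts to 13.2 to 16.4 fragments. Whether the low FPKM of most members limited the number of calls was not tested.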

Other observations

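Copies of Rps2, a protein of the small subunit near the mRNA entry, differed between the genotypes when Rps2 itself did not pass. WT values of Rps2-ps10 were 6.12, 7.35 and 3.42 and then 9.85, 14 and 18.1 FPKM, against 89.7, 102.3 and 90 and then 98.1, 47.5 and 142.7 FPKM in β8ITG-cKO. The genotypes did not overlap at either time (log2 differences 3.89 at 0 h and 2.60 at 24 h, limma-trend adjusted p = 0.000274 and 0.00931). Rps2-ps13 and Rps2-ps6 were also higher in β8ITG-cKO at both times, by 3.28 and 2.31 at 0 h and 2.61 and 1.52 at 24 h. Rps2 had 2.22, 1.62 and 2.06 and then 5.25, 6.15 and 2.39 FPKM in WT, against 1.76, 1.16 and 1.84 and then 1.7, 3.16 and 1.15 FPKM in β8ITG-cKO. Rpl34-ps1 was higher in β8ITG-cKO at 0 h (162.9 against 55.4 FPKM, log2 difference 1.56, adjusted p = 0.00914), but at 24 h the groups overlapped. Rps2-ps10 is placed at chr18:61220499-61289750, a far longer interval than that of Rps2 at chr17:24720063-24721927. Whether other genes lie in it, and their part in its values, was not tested. WT and β8ITG-cKO mice differed in strain background, so strain, deletion and the sharing of fragments between copies cannot be told apart. These pseudogenes were named after their values were seen.

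Introns of ribosomal protein genes hold snoRNAs that guide the modification of rRNA, and 57 genes shared the interval of 34 members. Most were listed at or near 0. In the interval of Rps3, Snord15b had a mean of 12810 FPKM and Snord15a one of 1673.1 FPKM, while Rps3 had 0.766 FPKM. Snord15b ran from 8973.2 to 12595 FPKM in the WT libraries and from 13266 to 16907 FPKM in the β8ITG-cKO libraries, without overlap. FPKM of such short genes rest on a small effective length and were not tested here.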
